A study of Mus musculus with 18 samples.

Results

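The genes described here are 58 members of the main enzyme families of xenobiotic metabolism, the cytochromes P450 of families Cyp1 to Cyp4, the UDP-glucuronosyltransferases (Ugt), the glutathione S-transferases (Gst) and the sulfotransferases (Sult). They were chosen by 2 criteria, a gene symbol that matches these family names and a summed raw count of at least 180 over all 18 libraries. Of the 43346 rows of the count table, 132 had a matching symbol, 58 reached the minimum and 74 did not, among them 33 without a single count. Just inside the minimum were Cyp4f15, Ugt2a3 and Cyp3a11, with summed counts of 339, 212 and 204, and just outside were Cyp2j13, Cyp2d10 and Cyp4f39, with 178, 164 and 134. The summed count chose the members, so that the presence of counts is not a result. Of the 58, 53 would have reached the minimum in either intestinal site alone, Cyp3a25 and Ugt2a3 did so only in the small intestine and Cyp2d34 only in the large intestine, and Cyp3a11 and Cyp4f15 needed both. A higher level in the site through which these 3 genes entered was therefore built into the choice. With the libraries of the third SI replicate left out, as in some fits below, 48 of the 58 reached the minimum in either site alone. Cyp3a25 then did so only in the small intestine, Cyp2c66, Cyp2d22, Cyp2d34, Gstm6, Ugt1a2 and Ugt2b36 only in the large intestine, and Cyp3a11, Cyp4f15 and Ugt2a3 in neither, the last with no large intestinal count, so that the same holds in those fits for these genes of 1 site.

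RNA was sequenced from Lgr5+ cells of the small intestine (SI) and the large intestine (LI) of untreated C57BL/6 mice aged 8 to 20 weeks per the labels (the study's methods give a wider range), all with the genotype Lgr5_eGFP_Iris_creERT2 (spelled as in the labels), in which GFP is driven from the Lgr5 locus and marks crypt base stem cells. Crypts were dissociated and living Epcam+ cells were sorted by GFP at 3 levels, and the study places high, medium and low GFP at the centre of the crypt base, at its border and beyond row 3, here called centre, border and row>3 cells. There were 3 replicates in each of the 6 groups, which the study's methods call biological, and the labels do not tie a replicate number to a mouse. GFP level stands in for position, the allele is known to be active in only part of the crypts, and the segment of SI and LI used for sequencing is not stated for these libraries.

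Xenobiotic metabolism is usually described in steps. Cytochromes P450 oxidise foreign and endogenous lipophilic compounds with electrons from NADPH-cytochrome P450 reductase (Por). Conjugating enzymes then attach a polar group, glucuronic acid from UDP-glucuronic acid (Ugt), glutathione (Gst) or sulfate from PAPS (Sult). Pumps of the Abc family export the products. In the gut the differentiated epithelium is the main site of these reactions, and the ligand-activated receptors Ahr, Nr1i2 (PXR) and Nr1i3 (CAR) are their classical inducers.

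Promoters are shown for the members on which the results turn, since within 1 family or 1 gene cluster the levels went in opposite directions. RefSeq sequences of the window from 250 bases before to 50 bases after the gene start (GRCm38.p6, 300 bases) were at hand for 51 of the 58 members. The motifs searched, on both strands, were GCGTG (the core of the Ahr element), TGACNNNGC (the core of the antioxidant response element), CAAAGTCCA (an HNF4A element), TTTATNG (a CDX2 element) and GATAA (an element of zinc finger factors such as Gata4). Each sequence runs 5′ to 3′ along the gene, in lower case, with every match of these motifs or of their reverse complements in capitals.
Sult1a1, chr7:126676369-126676668, minus strand: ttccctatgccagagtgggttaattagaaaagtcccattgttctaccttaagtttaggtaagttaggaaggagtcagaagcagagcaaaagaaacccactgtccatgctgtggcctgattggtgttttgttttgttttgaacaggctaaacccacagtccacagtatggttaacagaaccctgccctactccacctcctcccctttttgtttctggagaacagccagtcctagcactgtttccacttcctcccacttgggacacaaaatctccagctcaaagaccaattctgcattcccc
Cyp2c55, chr19:39006769-39007068, plus strand: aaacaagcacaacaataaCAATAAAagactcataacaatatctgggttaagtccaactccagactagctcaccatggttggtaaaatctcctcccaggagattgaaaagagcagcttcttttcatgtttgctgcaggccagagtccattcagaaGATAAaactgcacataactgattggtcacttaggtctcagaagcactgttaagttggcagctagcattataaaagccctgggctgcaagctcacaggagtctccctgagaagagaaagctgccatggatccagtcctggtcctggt
Cyp2c65, chr19:39060756-39061055, plus strand: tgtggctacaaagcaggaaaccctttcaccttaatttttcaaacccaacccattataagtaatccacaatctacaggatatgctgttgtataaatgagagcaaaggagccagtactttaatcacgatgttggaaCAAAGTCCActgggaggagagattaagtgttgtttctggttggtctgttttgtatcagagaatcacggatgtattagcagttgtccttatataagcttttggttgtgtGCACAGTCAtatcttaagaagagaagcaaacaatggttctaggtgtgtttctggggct
Cyp2c68, chr19:39741052-39741351, minus strand: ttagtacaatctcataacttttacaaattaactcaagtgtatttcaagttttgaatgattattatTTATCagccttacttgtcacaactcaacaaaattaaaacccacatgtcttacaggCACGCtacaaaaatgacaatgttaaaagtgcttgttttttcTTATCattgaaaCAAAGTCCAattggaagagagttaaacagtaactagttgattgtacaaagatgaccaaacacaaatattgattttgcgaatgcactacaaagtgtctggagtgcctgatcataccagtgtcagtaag
Ugt2b5, chr5:87140291-87140590, minus strand: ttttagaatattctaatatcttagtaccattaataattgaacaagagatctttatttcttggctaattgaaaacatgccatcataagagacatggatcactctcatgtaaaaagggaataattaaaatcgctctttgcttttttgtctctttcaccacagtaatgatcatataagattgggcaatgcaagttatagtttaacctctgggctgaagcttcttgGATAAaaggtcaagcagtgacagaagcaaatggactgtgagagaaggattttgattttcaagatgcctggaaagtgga
Ugt2a3, chr5:87337146-87337445, minus strand: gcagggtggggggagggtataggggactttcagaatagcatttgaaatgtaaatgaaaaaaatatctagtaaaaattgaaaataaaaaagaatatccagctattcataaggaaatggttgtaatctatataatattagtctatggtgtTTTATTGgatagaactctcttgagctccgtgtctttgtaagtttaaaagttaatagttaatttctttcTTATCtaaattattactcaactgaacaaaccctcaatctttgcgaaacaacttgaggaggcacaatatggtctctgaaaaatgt
Cyp4f40, chr17:32658636-32658935, plus strand: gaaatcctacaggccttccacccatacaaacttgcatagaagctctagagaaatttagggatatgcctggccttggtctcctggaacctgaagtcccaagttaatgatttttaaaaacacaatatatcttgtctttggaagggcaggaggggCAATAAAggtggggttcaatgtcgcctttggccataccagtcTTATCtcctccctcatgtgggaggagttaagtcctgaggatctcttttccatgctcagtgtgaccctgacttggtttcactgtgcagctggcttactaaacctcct

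The HNF4A letters were found in 3 of the 51 members, Cyp2c65, Cyp2c68 and Cyp3a11, or 5.88%, against 0.475% of all 32851 promoters of this length. Cyp2c65 and Cyp2c68 both hold them, and their levels differed in opposite directions between SI and LI. GATAA or its complement was present in 22 members, or 43.1%, against 25.4% of all promoters, and it was in Ugt2b5 as well as in its neighbour Ugt2a3. GCGTG was found in 13 members (25.5%, against 32.4% of all), TGACNNNGC in 5 (9.8%, against 12.4%) and TTTATNG in 4 (7.84%, against 10.9%). The Sult1a1 window held none of the 5. These matches describe the letters only.

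Totals of the 18 libraries ran from 8312093 to 31940965 counts with a median of 21934851.5, and levels are given as CPM (counts divided by the library's size) scaled by TMM factors. The 3 libraries of SI replicate 3 stood apart from the other SI libraries at all 3 positions. They held the SI markers Gata4 (6.44 to 7.42 CPM, against at most 0.058 in LI) and Abcg5. The 7 SI markers summed to 1030, 586 and 639 CPM in their centre, border and row>3 cells, against 4270 and 4000, 1510 and 2860, and 1440 and 739 in SI replicates 1 and 2 and at most 18.7 in LI. Among them Olfm4 had 856, 51.5 and 9.63 CPM, against 3820 to 3990, 1140 to 2630 and 181 to 396. The libraries also held markers of the LI. Whether their cells came from another segment or from both sites is not stated and was not tested. Car1, an LI carbonic anhydrase, was at 2.89 and 10.4 CPM in row>3 cells of SI replicates 1 and 2 and lower in their other cells. It was at 82.1, 1140 and 1940 CPM in centre, border and row>3 cells of SI replicate 3 and at 123 to 1350 in LI, and Aqp8, a water channel, at 2.8, 32.4 and 58.2 CPM and at 1.85 to 16.7. Of the 7 listed LI markers reported here, 2 had counts in LI centre and LI border cells, Car1 and Aqp8, and 4 in LI row>3 cells, so that the list rests on these genes. Cell type markers differed as well, and 5 of 5 stem cell, 9 of 9 absorptive (Car1 and Aqp8 not counted among them), 6 of 6 goblet and 4 of 4 Paneth cell markers had counts in each SI group. The stem cell sum was 1420, 154 and 57.8 CPM in centre, border and row>3 cells of SI replicate 3, and 4950 to 5160, 1800 to 3440 and 338 to 623 in SI replicates 1 and 2. The absorptive sum of replicate 3 was above those of replicates 1 and 2 in centre (321 CPM against 274 and 94.8) and border cells (1180 against 619 and 300) and between them in row>3 cells (1470 against 1940 and 755). In centre cells of replicate 3, Car4 (69.4 CPM against 0.943 and 1.16, with 114 to 130 in LI) and Slc26a3 (36.6 against 10.8 and 15.9) were above both. Fabp1 and Fabp2 were above both as well, and Alpi, Apoa1, Apoa4, Sis and Krt20 lay between replicates 1 and 2. The goblet sum of replicate 3 was above in centre (10300 against 699 and 1230) and border cells (13400 against 8430 and 4110) and below in row>3 cells (31500 against 49600 and 34100). Its Paneth sum was between them in centre (1820 against 1640 and 7610) and below in border (538 against 3350 and 5850) and row>3 cells (195 against 3090 and 4440). The part of these markers in the results was not tested. The counts of members called are therefore given in each comparison with all 18 libraries and again without the 3 SI replicate 3 libraries. These libraries were left out after their values had been seen. Most members were higher in them than in the other SI libraries (below), so that calls lower in SI were favoured by leaving them out. Such calls describe SI replicates 1 and 2. Of 27 calls of single members with all libraries that were followed, 8 were kept with each single library left out and 19 were lost without at least 1.

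The members shared this split. In SI replicate 3 the level lay above both other SI replicates for 48 of 58 members in centre cells, 51 in border and 46 in row>3 cells, against 43.1%, 43.3% and 37.2% of all 14345 genes with a mean count of at least 10. The median ratio of replicate 3 to the mean of replicates 1 and 2 was 2.21, 4.11 and 2.29 for the members and 1.01, 1.02 and 0.963 for all genes. Summed over the members, SI replicates 1 and 2 held 516 and 469 CPM in centre cells, 450 and 484 in border and 989 and 629 in row>3 cells. SI replicate 3 held 1360, 2710 and 3120 CPM at the same positions, and the LI libraries 1760 to 3180. Fewer cells of a type and less RNA per cell cannot be told apart in these bulk samples.

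**Figure D1:**
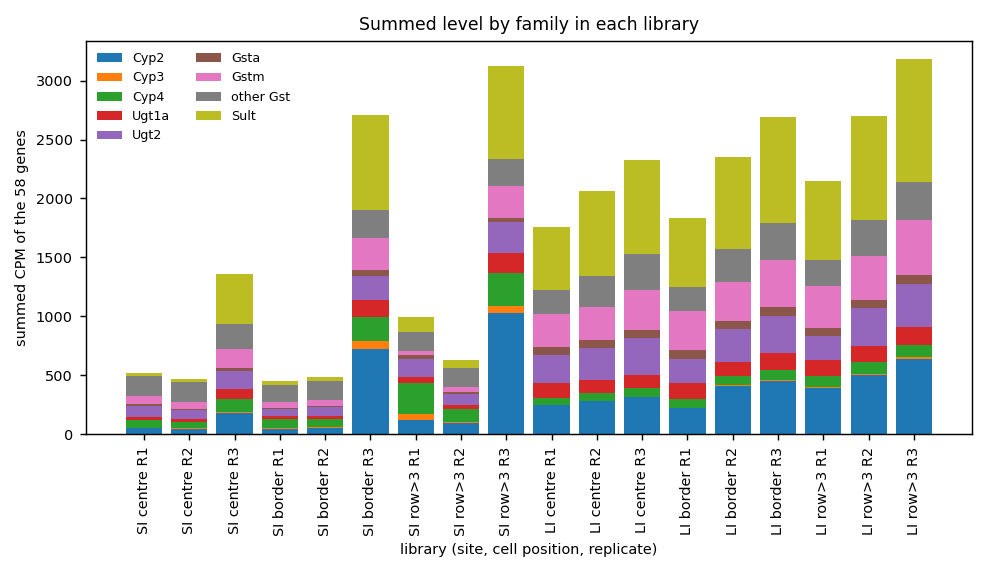
Summed level of the 58 members in each of the 18 libraries, in CPM, stacked by family, with SI libraries on the left and LI libraries on the right. SI replicates 1 and 2 lie between 450 and 989 CPM, and the SI replicate 3 libraries, at 1360 to 3120 CPM, lie near or within the LI range of 1760 to 3180 CPM.

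Levels per kilobase of exon can be compared between members. In LI centre cells Sult1a1 was first with 305 ± 41.5 CPM per kb (SD, n = 3), followed by Gstm1 (99.1 ± 16.8), Sult1d1 (74.4 ± 25), Gsto1 (57.8 ± 12.9), Cyp2c55 (55.6 ± 8.57) and Ugt2b34 (46.4 ± 6.1). The ranges of neighbours from Gstm1 downward are within 1 or 2 SD of each other, and only Sult1a1 was clear of the rest. Over all 3 SI replicates Sult1a1 was also first in centre (67 ± 114) and border cells (107 ± 183) and Cyp2c55 in row>3 cells (131 ± 224), with SDs above the means. In SI centre cells of replicates 1 and 2 Gsto1 came first with 42.3 CPM per kb, before Gstm1 (16.8), Ugt2b34 (15.6) and Gstp1 (10.5). In SI row>3 cells of the same replicates the order was Gsto1 (40.2), Cyp4f14 (31.5), Ugt2b34 (25.7), Cyp4f40 (20.7) and Sult1d1 (18.5). Gsto1, an omega class transferase that reduces dehydroascorbate and arsenic species, came first in both lists of replicates 1 and 2, and it lay at 75.2 to 115 CPM in all 9 SI libraries.

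**Figure D2:**
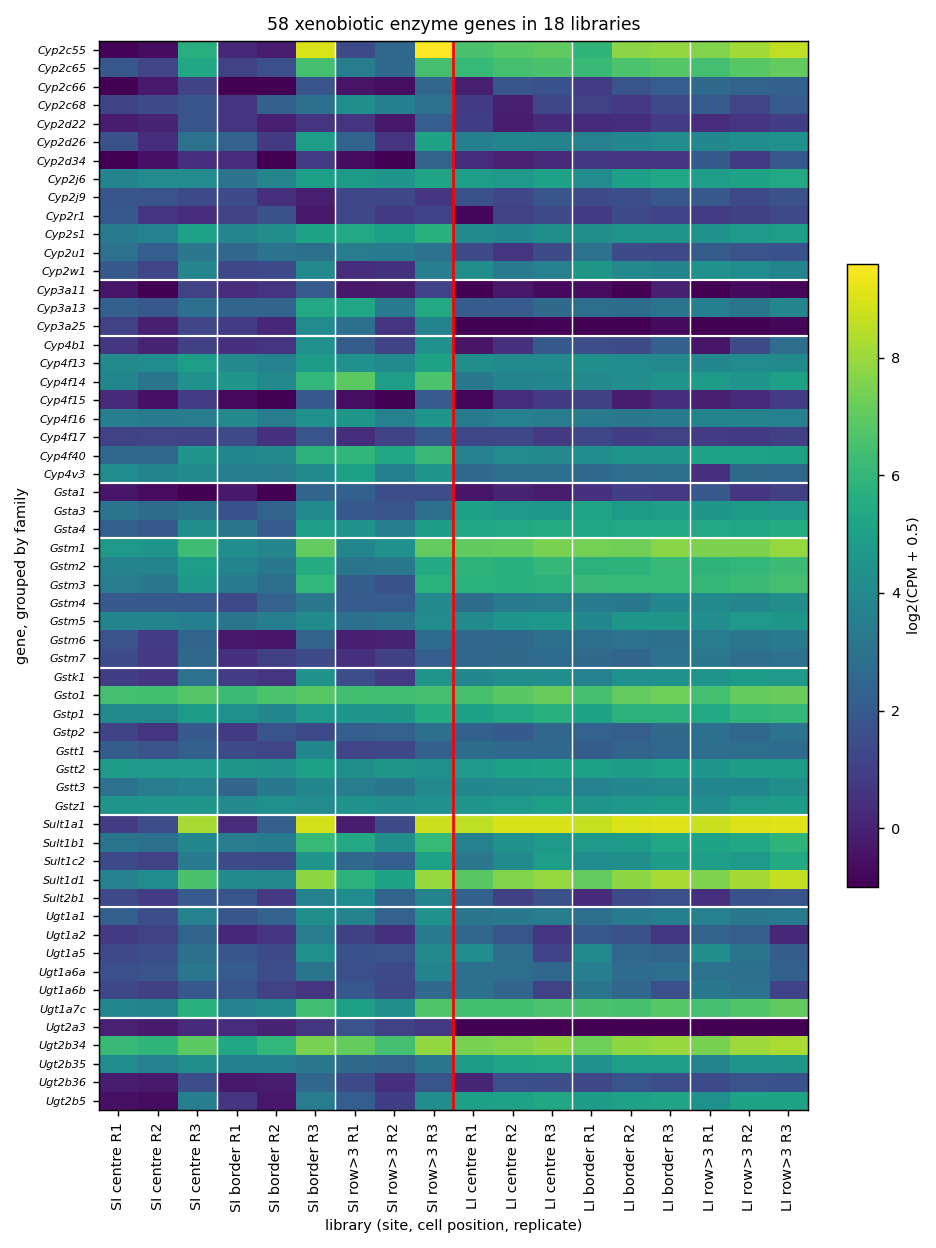
Level of each of the 58 members (rows, grouped by family) in each library (columns), as log2(CPM + 0.5). The red line separates SI from LI, and within SI the replicate 3 columns are brighter than replicates 1 and 2 in most rows.

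The first question was how SI and LI differ at equal position. With all libraries, few members passed an adjusted p of 0.05 in edgeR's quasi-likelihood test. In centre cells 1 was higher in SI and 2 were lower, against 1.19% and 0.805% of all 26717 genes tested. Those are all genes with a mean count above 0, of which 14345 had a mean count of at least 10. Each member had a summed count of at least 180, so that the shares of all genes, here and below, are no matched background. In border cells 1 was higher and 3 were lower, against 1.15% and 0.599%. In row>3 cells 5 were higher and 4 lower, against 2.76% and 1.32%. The 1 higher in border cells was Ugt2a3, and Ugt2a3 and Cyp3a25 were among the 5 in row>3 cells, a direction that the choice of members had fixed. With 1 library left out at a time, the members called in centre cells numbered 7 without SI replicate 3 (4.66% of all genes) and 0 or 1 without any other (0.679% to 1.28%). In border cells they numbered 7 without SI replicate 3 (3.24%) and 0 to 2 without any other (0.519% to 1.29%). In row>3 cells they numbered 17 without SI replicate 3 (6.34%), 4 without SI replicate 1 (1.43%) and 5 without LI replicate 2 or LI replicate 3 (1.84% and 2.06%). Without all 3 SI replicate 3 libraries, the counts became 1 higher and 29 lower in centre cells (4.51% and 6.39% of all genes), none higher and 26 lower in border cells (3.7% and 4.4%), and 8 higher and 26 lower in row>3 cells (6.8% and 5.36%), the latter with Ugt2a3 and Cyp3a25 among the 8. Of the members lower, 26, 24 and 23 were left in centre, border and row>3 cells without those that reached the minimum in LI alone. Beside the 0 members higher in border cells, 37 members had an unadjusted p under 0.05 in either direction in that edgeR fit. DESeq2 with all libraries called 2 higher, where it called 4.54% of all genes in either direction. The median log2 fold change of the members, SI over LI, was -0.9, -0.44 and -0.44 with all libraries and -1.25, -1.39 and -1.13 without SI replicate 3, where the median of all genes was 0 in both fits.

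Cell type markers differed between the sites too. In centre cells the goblet sum was 699 and 1230 CPM in SI replicates 1 and 2 and 6910 to 11300 in LI, with 6 of 6 markers counted in both sites. The sum of the 9 absorptive markers there was 274 and 94.8 CPM in these SI libraries and 232 to 275 in LI, with 8 of 9 counted in LI and Apoa4 at 0. Single absorptive markers differed in both directions, Car4 with 0.943 and 1.16 CPM in these SI libraries and 114 to 130 in LI, and Apoa1 with 98.1 and 15.3 CPM and at most 0.187. In row>3 cells the goblet sum was 49600 and 34100 CPM in SI replicates 1 and 2 and 15200 to 24300 in LI, so that its order between the sites was the opposite of that in centre cells. Paneth cell markers summed to 1640 and 7610 CPM in centre cells of SI replicates 1 and 2 and to at most 0.748 in LI. The stem cell sum, mostly Olfm4 in SI, was 5160 and 4950 CPM in these SI cells and 367 to 411 in LI. The immune sum, mostly Cd74 in SI, was 580 and 569 CPM against 6.96 to 33.1. The tuft cell sum was lower in SI, with 25.6 and 33.2 CPM against 132 to 208. The part of these markers in the site differences was not tested.

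**Figure D3:**
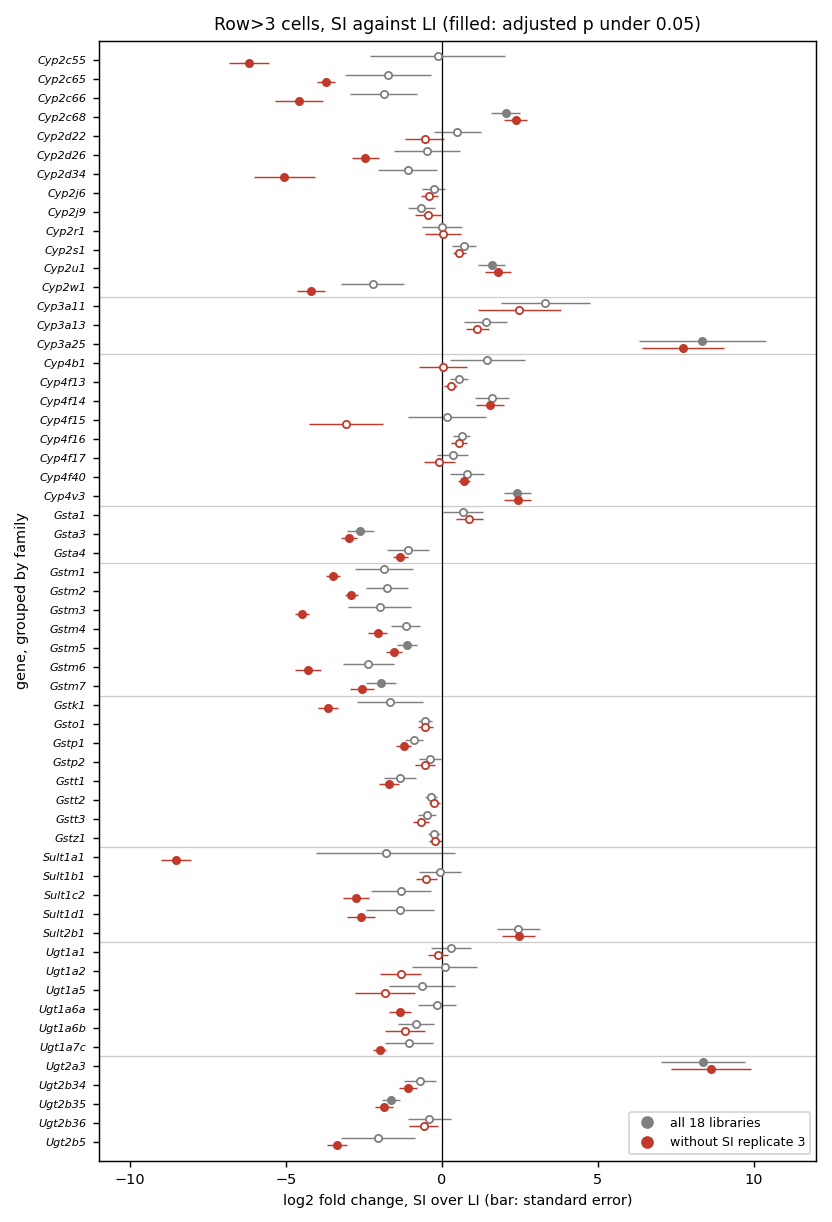
Log2 fold change of each member in row>3 cells, SI over LI, with its standard error, in the fit with all 18 libraries (grey) and without SI replicate 3 (red). Filled points have an adjusted p under 0.05. The 7 Gstm genes lie left of 0 in both fits, and Ugt2a3, Cyp3a25, Cyp4v3 and Cyp2c68 lie to the right in both.

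Among the P450 genes, the Cyp2c group on chromosome 19 divided. Cyp2c55, an arachidonic and linoleic acid hydroxylase, had 0.0393, 0.134 and 49 CPM in the 3 SI centre replicates and 92.8, 113 and 127 in LI centre. In row>3 cells it had 2.19, 5.5 and 775 CPM in SI and 193, 282 and 384 in LI. SI replicates 1 and 2 lay below every LI library at each position, and SI replicate 3 lay below the LI range in centre cells and above it in border and row>3 cells. The log2 fold change in row>3 cells was -0.14 ± 2.17 (SE, adjusted p = 1) with all libraries and -6.18 ± 0.64 (adjusted p = 1.99e-05) without SI replicate 3. Cyp2c65 fell to the same side, with 10.3, 5.65 and 87.3 CPM in SI row>3 and 86.2, 113 and 133 in LI row>3, a log2 fold change of -3.72 ± 0.29 (adjusted p = 1.55e-08) without SI replicate 3 and -1.72 ± 1.38 (adjusted p = 0.668) with it. Cyp2c66 was rarer. In border cells it had 0, 0 and 3 CPM in SI and 1.36, 2.9 and 4.05 in LI, so that SI replicate 3 lay within the LI values, and the log2 fold change was -1.2 ± 1.19 (adjusted p = 0.789) with all libraries. SI replicates 1 and 2 had 0 counts against 181 in LI, so that it was at least 23.6-fold lower there, with 3 counts over the group as the floor. It reached the count minimum in LI alone once SI replicate 3 was left out, so that this direction is a description.

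Cyp2c68 lies further along chromosome 19 and went the other way. It had 18.8, 11.5 and 7.14 CPM in SI row>3 and 3.69, 1.84 and 3.79 in LI row>3, without overlap. The log2 fold change was 2.04 ± 0.46 (adjusted p = 0.0122) with all libraries and 2.37 ± 0.37 (adjusted p = 5.82e-05) without SI replicate 3. The call with all libraries was lost without SI replicate 1 or LI replicate 2 (adjusted p = 0.101 to 0.136). Of its 50-base exon windows, 43.3% occur in at least 1 other gene, most often Cyp2c40. That gene had 1 count over all 18 libraries against 1717 for Cyp2c68. The other genes that hold such windows were not listed, so that the assignment of these reads is uncertain.

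Of the other Cyp2 members, Cyp2u1, a fatty acid hydroxylase, was higher in SI centre cells (7.23, 4.02 and 8.72 CPM, against 2.21, 1.01 and 2.23 in LI). Its log2 fold change was 1.9 ± 0.46 (adjusted p = 0.0313), and in row>3 cells 1.6 ± 0.43 (adjusted p = 0.0355). They were 1.73 ± 0.5 (adjusted p = 0.0248) and 1.79 ± 0.42 (adjusted p = 0.00459) without SI replicate 3. The centre call was lost without any single library but SI replicate 2 (adjusted p up to 0.166), and the row>3 call without any but SI replicate 3 (adjusted p up to 0.179). Cyp2w1 had 0.797, 0.954 and 11 CPM in SI row>3 and 20.3, 17.1 and 13.1 in LI row>3, a log2 fold change of -2.21 ± 1.01 (adjusted p = 0.315) with all libraries and -4.2 ± 0.44 (adjusted p = 1.86e-07) without SI replicate 3. No Cyp1 gene was a member. Cyp1a1 and Cyp1a2, the classical targets of Ahr, had 2 and 1 counts over all 18 libraries and Cyp1b1 had 0, which allows up to 3 counts. Cyp2e1 and Cyp2b10, the latter the classical target of Nr1i3, had 46 and 58 counts and also stayed outside.

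Of the Cyp3 and Cyp4 genes, Cyp3a25 and Cyp4v3 were called between row>3 cells with all libraries, both higher in SI. The Cyp3a25 call was lost without any single library but SI replicate 2 (adjusted p = 0.0614 to 0.123). The Cyp4v3 call held with each single library left out. Cyp3a25, which entered the list through SI alone so that its direction is a description, had 7.04, 1.07 and 12.8 CPM in SI row>3 and 0, 0 and 0.048 in LI row>3. Its 405 counts in SI against 1 in LI give a ratio of 400 (95% exact counting interval 71.4 to 15800). That interval is for counts pooled over the libraries of a group and leaves out the spread between replicates. Cyp3a11, the main hepatic steroid and drug hydroxylase of this group, had 1.71 CPM or less in SI row>3, and 0, 0.117 and 0.048 in LI row>3, and was not called in either fit. Cyp4v3, a medium-chain fatty acid hydroxylase, had 30.7, 11.4 and 23.1 CPM in SI row>3 and 0.866, 5.79 and 5.52 in LI row>3. All SI values lay above all LI values, and the log2 fold change was 2.41 ± 0.43 (adjusted p = 0.00191), or 2.43 ± 0.44 (adjusted p = 0.00109) without SI replicate 3. Cyp4f14, which omega-hydroxylates leukotriene B4 and other lipids, had 123, 29.2 and 97.5 CPM in SI row>3 and 27.4, 22.7 and 32.2 in LI row>3. It did not pass with all libraries (adjusted p = 0.14) and lay at the threshold without SI replicate 3, with a log2 fold change of 1.54 ± 0.46 (adjusted p = 0.0499), and DESeq2 called it with all libraries (adjusted p = 0.0082). The lowest SI value lay between the LI values. Cyp4f40 changed side with position without SI replicate 3. It was lower in SI in centre cells (-1.4 ± 0.24, adjusted p = 0.000266) and higher in row>3 cells (0.71 ± 0.19, adjusted p = 0.0147), and with all libraries it passed in neither (adjusted p = 0.843 and 0.552).

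The Ugt2 cluster on chromosome 5 (86889767 to 87569027 with Sult1b1 and Sult1d1, GENCODE M21 on GRCm38) held members on both sides. Ugt2b35 had 5.78, 4.85 and 9.32 CPM in SI row>3 and 13.2, 23.2 and 23.8 in LI row>3, and was lower in SI at all 3 positions with all libraries. Its log2 fold changes were -1.11 ± 0.27 in centre (adjusted p = 0.0328), -1.34 ± 0.28 in border (adjusted p = 0.0146) and -1.63 ± 0.29 in row>3 cells (adjusted p = 0.0015), and it also passed at all 3 without SI replicate 3 (-1.18, -1.17 and -1.85). The row>3 call held with each single library left out, and the centre and border calls did not (adjusted p up to 0.194 and 0.0836). Ugt2b5, a steroid- and drug-conjugating enzyme, had 0.196, 0.134 and 11.2 CPM in SI centre and 31, 33.2 and 39.1 in LI centre. Its log2 fold change there was -3.18 ± 1.23 (adjusted p = 0.241), and -7.6 ± 0.52 (adjusted p = 1.04e-10) without SI replicate 3. Ugt2b34, the Ugt2 gene with the most counts, had 136, 85.2 and 234 CPM in SI row>3 and 170, 261 and 306 in LI row>3, a difference of -1.09 ± 0.28 on the log2 scale without SI replicate 3 (adjusted p = 0.0167) and -0.7 ± 0.5 (adjusted p = 0.6) with it.

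Ugt2a3, in the same cluster, had no count in any LI library. It had 0.472, 0.357 and 0.689 CPM in SI centre, 0.777, 0.502 and 1.16 in SI border and 2.76, 1.56 and 1.24 in SI row>3. The 140 counts in SI row>3 make it at least 46.1-fold higher there, and at least 17.9-fold higher in border cells, or 12.8-fold without SI replicate 3. Ugt2a3 entered the list through SI alone, so that this direction is a description, and its level was low in every library. Its border call with all libraries was lost without any 1 of the 6 libraries compared (adjusted p = 0.0609 to 0.186). Its row>3 call held with each single library left out.

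The 6 Ugt1a members are alternative first exons of 1 locus on chromosome 1 (88095062 to 88220002) that share their last exons, so that over 50% of the exon windows of each occur in another gene and the split of reads between them is uncertain. As a sum they held 23.6 to 55.3 CPM in SI replicates 1 and 2, 88.5 to 170 in SI replicate 3 and 114 to 148 in LI. Ugt1a7c took most of it, with 32, 18.7 and 105 CPM in SI row>3 and 86.1, 105 and 127 in LI row>3, a log2 fold change of -1.05 ± 0.76 (adjusted p = 0.612) with all libraries and -2 ± 0.22 (adjusted p = 3.29e-07) without SI replicate 3. Ugt1a1, the bilirubin-conjugating form, had 13.3, 4.54 and 20.7 CPM in SI row>3 and 11.9, 9 and 10.1 in LI row>3, so that the sites overlapped.

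The mu class transferases lay on 1 side. The 7 Gstm genes form 1 cluster on chromosome 3 (107895821 to 108044894). All 7 had a negative log2 fold change, SI over LI, in row>3 cells in both fits. Gstm5 (-1.12 ± 0.31, adjusted p = 0.0406) and Gstm7 (-1.96 ± 0.48, adjusted p = 0.0206) passed with all libraries, each call being lost without any of 4 single libraries (adjusted p up to 0.301 and 0.202), and without SI replicate 3 all 7 passed in border and in row>3 cells and 6 of 7 in centre cells (4.4%, 5.36% and 6.39% of all genes were lower), with Gstm6, which then reached the count minimum in LI alone, among them. Gstm1, the most abundant, had 14.2, 20.3 and 134 CPM in SI row>3 and 181, 181 and 243 in LI row>3, a log2 fold change of -3.49 ± 0.22 (adjusted p = 7.33e-11) without SI replicate 3 and -1.86 ± 0.93 (adjusted p = 0.37) with it. Gstm3 had 3.92, 2.6 and 53.6 CPM in SI row>3 and 67, 74.4 and 89.5 in LI row>3, with -4.49 ± 0.23 (adjusted p = 2.09e-12) without SI replicate 3. For both genes SI row>3 replicate 3 lay between the other SI libraries and LI. Of the exon windows of Gstm3, 28.8% occur in another gene, most often Gstm1.

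Among the alpha class, Gsta3 had 8.17, 6.25 and 8.13 CPM in SI centre and 31.5, 26 and 24.7 in LI centre. The groups did not overlap, with -1.86 ± 0.41 (adjusted p = 0.0221) with all libraries and -1.87 ± 0.23 (adjusted p = 3.77e-06) without. In row>3 cells the SI values were 3.25, 2.9 and 7.06 CPM and the LI values 23.8, 27.2 and 25.4, a log2 fold change of -2.61 ± 0.43 (adjusted p = 0.00148), and -2.98 ± 0.26 (adjusted p = 1.15e-08) without SI replicate 3. The row>3 call held with each single library left out, and the centre call was lost without any but SI replicate 3 (adjusted p up to 0.119). The human enzyme GSTA3 is known for isomerising steroid precursors. Gsta4, which conjugates the lipid peroxidation product 4-hydroxynonenal, had 4.44, 3.26 and 18.9 CPM in SI centre and 41, 42.9 and 45.3 in LI centre. Its log2 fold change was -2.29 ± 0.69 (adjusted p = 0.122) with all libraries and -3.43 ± 0.29 (adjusted p = 7.77e-09) without SI replicate 3, and DESeq2 called it with all libraries (adjusted p = 0.00416).

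Of the remaining transferases, Gstk1, the mitochondrial and peroxisomal form, had 2.46, 1.26 and 21.8 CPM in SI row>3 and 21.8, 26.8 and 25.6 in LI row>3. Its log2 fold change was -1.67 ± 1.06 (adjusted p = 0.538) with all libraries and -3.65 ± 0.32 (adjusted p = 1.53e-08) without SI replicate 3. Gstp1 had 19.6, 14.6 and 25.1 CPM in SI border and 33.5, 54.9 and 55.6 in LI border, a log2 fold change of -1.27 ± 0.3 (adjusted p = 0.0306), and -1.46 ± 0.26 (adjusted p = 0.000519) without SI replicate 3. The groups did not overlap, and the call with all libraries was lost without SI replicate 1 or 2 or LI replicate 2 or 3 (adjusted p up to 0.148). Gstt1 had a log2 fold change in row>3 cells of -1.34 ± 0.52 (adjusted p = 0.188) with all libraries and -1.69 ± 0.33 (adjusted p = 0.000762) without SI replicate 3. Gsto1 had 82.3, 80.3 and 87.8 CPM in SI row>3 and 85.7, 136 and 145 in LI row>3 and was not called in either fit (adjusted p = 0.2 and 0.189).

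Sult1a1, the phenol sulfotransferase, had the most counts of all members, 118087. In centre cells it had 1.34, 2.32 and 299 CPM in SI and 387, 492 and 498 in LI. In border cells the values were 0.777, 4.08 and 481 in SI and 407, 512 and 539 in LI, and in row>3 cells 0.398, 2.29 and 427 in SI and 417, 528 and 544 in LI. The LI mean was 251, 200 and 369 times the mean of SI replicates 1 and 2, whereas SI replicate 3 was at 65.1%, 99% and 86% of the LI mean. The log2 fold change in row>3 cells was -1.8 ± 2.22 (adjusted p = 0.826) with all libraries and -8.52 ± 0.48 (adjusted p = 3.32e-08) without SI replicate 3. An exon of the antisense gene Sgf29 overlaps it by 61 bases.

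Sult1d1, a sulfotransferase of amines and phenols, had 55.7, 35.4 and 251 CPM in SI row>3 and 185, 284 and 391 in LI row>3, with a log2 fold change of -2.59 ± 0.45 (adjusted p = 0.00284) without SI replicate 3 and -1.34 ± 1.08 (adjusted p = 0.671) with it. Sult1c2 followed it with -2.76 ± 0.42 (adjusted p = 0.000158) and -1.31 ± 0.96 (adjusted p = 0.619). Sult2b1, which sulfates cholesterol and other sterols, lay on the opposite side, with 17.5, 4.89 and 12.9 CPM in SI row>3 and 0.866, 2.66 and 2.88 in LI row>3. The groups did not overlap, and the log2 fold change was 2.45 ± 0.7 (adjusted p = 0.0628) with all libraries and 2.46 ± 0.53 (adjusted p = 0.00334) without SI replicate 3.

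Without SI replicate 3, 23 members were lower in SI at all 3 positions, where 2.53% of all genes tested were. Of these, Cyp2c66 and Gstm6 had reached the count minimum in LI alone, which leaves 21. The 23 were Cyp2c55, Cyp2c65, Cyp2c66, Cyp2d26 and Cyp2w1 of the P450 genes, Gsta3, Gsta4, all Gstm genes but Gstm5, Gstk1 and Gstp1 of the transferases, Sult1a1, Sult1c2 and Sult1d1, and Ugt1a6a, Ugt1a7c, Ugt2b34, Ugt2b35 and Ugt2b5. At the other end, 19 members were called in no comparison between the sites in either fit. Gstz1, the maleylacetoacetate isomerase of tyrosine breakdown, had 21.2, 17.7 and 20 CPM in SI row>3 and 17.8, 25.2 and 27.3 in LI row>3, with a log2 fold change of -0.26 ± 0.2 (adjusted p = 0.626). Gstt2 had 19, 23.8 and 19.2 CPM in SI row>3 and 22.9, 27.3 and 28.9 in LI row>3, with -0.35 ± 0.19 (adjusted p = 0.4). Cyp2r1, the vitamin D 25-hydroxylase, had 0.316 to 3.3 CPM in SI and 0.058 to 2.06 in LI over all positions, and the sites overlapped. In the same row>3 comparison with all libraries the standard errors were 2.22 for Sult1a1 and 2.17 for Cyp2c55. A p above the threshold does not show that these 19 members had equal levels in the sites.

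**Figure D4:**
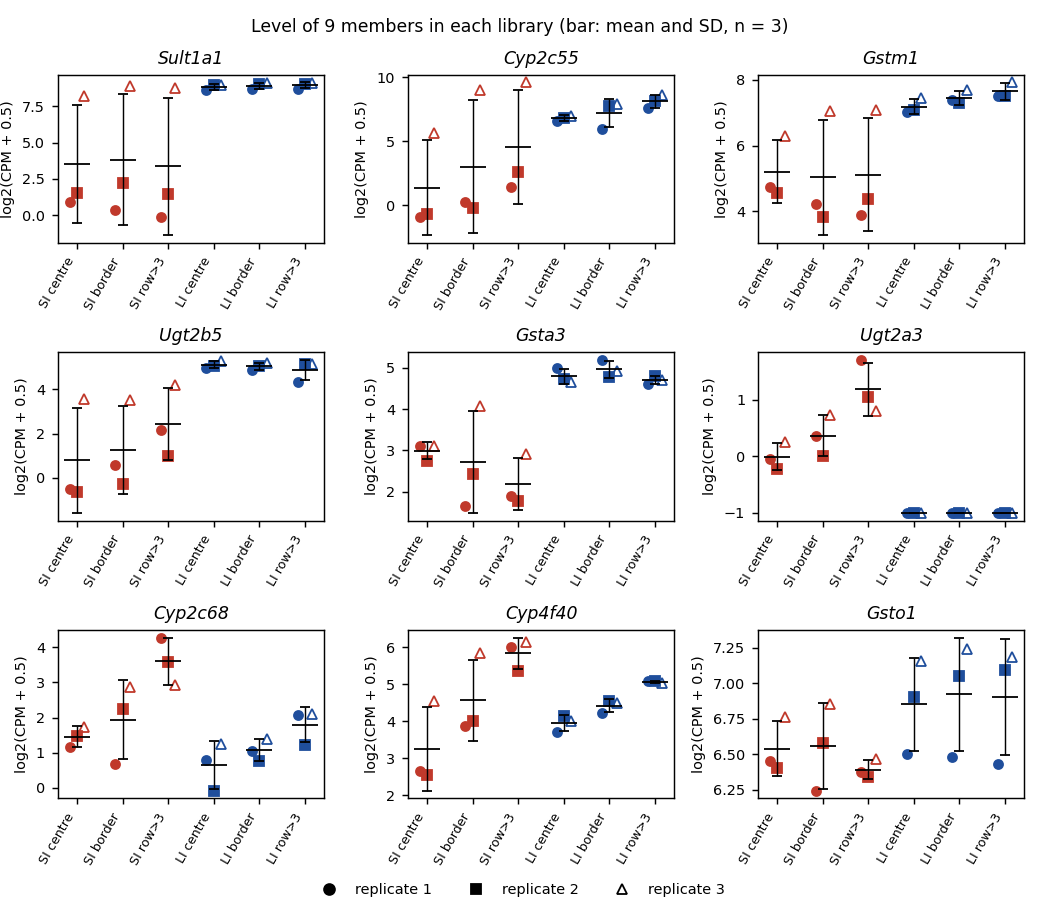
Level of 9 members in each library as log2(CPM + 0.5), SI in red and LI in blue, with replicates 1, 2 and 3 as circles, squares and open triangles and with the mean and SD of each group (n = 3). For Sult1a1, Cyp2c55, Gstm1 and Ugt2b5 the open triangles of SI lie far above the other SI points, whereas for Gsta3 in centre cells the 3 SI points lie together, at 6.25 to 8.17 CPM. Ugt2a3 is at 0 in all LI libraries.

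The next question was how the members vary with position inside 1 site. In SI, 10 members were higher in row>3 than in centre cells and 1 was lower with all libraries, against 7.35% and 5.82% of all genes tested. With low-count genes removed by edgeR's filter, 25.8% of 15998 genes were called in either direction, so that the unfiltered shares are no matched background. Without SI replicate 3, 17 members were higher and 4 lower, against 9.97% and 7.09% of all genes tested. Samples with the same replicate number deviated together within each site. With that number added to the model as a block 26 members were higher and 2 lower, where 22.8% of all genes were called in either direction. The block without SI replicate 3, a fit chosen after seeing the data, called 23.7% of all genes. Most members it called were higher, and those lower were Cyp2w1, Gsta3, Gstm1, Gstm2, Gstm3, Gstm5, Gstm6 and Ugt2b35. With 1 library left out at a time 4 members were called without SI centre replicate 1 or 2 (8.02% and 8.72% of all genes), 5 without SI row>3 replicate 1 (7.45%) and 7 without SI row>3 replicate 3 (10.8%). Among the members higher in row>3 cells with all libraries were 6 P450 genes, 2 Gst, 1 Sult and 1 Ugt. The 1 Ugt was Ugt2a3, which reached the count minimum only through its SI row>3 counts, so that its direction was favoured by the choice.

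Cyp4f40, a P450 of the leukotriene hydroxylase cluster on chromosome 17, had 5.74, 5.36 and 22.8 CPM in SI centre, 14.1, 15.6 and 56.4 in border and 63, 40.2 and 70.5 in row>3 cells. The row>3 and centre values did not overlap, and within each replicate the order of the 3 positions was the same. Its log2 fold change, row>3 over centre, was 2.36 ± 0.57 (adjusted p = 0.0134) with all libraries and 3.22 ± 0.25 (adjusted p = 1.09e-08) without SI replicate 3, and the call with all libraries was lost without SI centre replicate 1 or 2 (adjusted p = 0.055 to 0.0603). Cyp4f14, in the same cluster, had 13.9, 7.91 and 20 CPM in SI centre and 123, 29.2 and 97.5 in row>3, with 2.58 ± 0.57 (adjusted p = 0.00799), and 2.8 ± 0.56 (adjusted p = 0.00391) without SI replicate 3. Cyp4f16 rose less, from 11.2, 9.52 and 10.7 to 23.6, 11.6 and 23.5 CPM, with 0.89 ± 0.26 (adjusted p = 0.0262), and it did not pass without SI replicate 3 (adjusted p = 0.0664) or without 4 of the 6 single libraries (adjusted p up to 0.16).

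Cyp2c68 rose from 1.73, 2.28 and 2.85 CPM in SI centre to 18.8, 11.5 and 7.14 in row>3 cells, with a log2 fold change of 2.48 ± 0.48 (adjusted p = 0.00134). Cyp3a13, the Cyp3a gene with the most counts, rose from 4.36, 3.13 and 6.75 to 36.7, 9.73 and 42.6 CPM, with 2.64 ± 0.74 (adjusted p = 0.0309). Cyp2s1, which metabolises retinoids and eicosanoids, rose from 9.39, 12.1 and 32.6 to 41.7, 31 and 53.2 CPM, with 1.22 ± 0.38 (adjusted p = 0.042), and its SI replicates overlapped between positions. Sult2b1 rose from 2, 1.34 and 3.58 to 17.5, 4.89 and 12.9 CPM, with 2.35 ± 0.7 (adjusted p = 0.0331). Ugt2a3 rose with 1.94 ± 0.58 (adjusted p = 0.0368). It reached the count minimum only through its SI row>3 counts, so that this rise was favoured by the choice of members. Gstp2 rose with 1.26 ± 0.4 (adjusted p = 0.0379). Gsta1 rose from 0.275, 0.134 and 0 to 4.45, 2.44 and 2.33 CPM, with 4.41 ± 0.98 (adjusted p = 0.0032). These 7 genes also passed without SI replicate 3, with log2 fold changes from 1.62 for Gstp2 to 4.03 for Gsta1. With all libraries, the calls of Cyp2c68 and Gsta1 held with each single library left out, and those of the other 5 were lost without SI centre replicate 1, SI centre replicate 2 or SI row>3 replicate 1, among others (adjusted p up to 0.218). Of the exon windows of Gsta1, 90.5% occur in another gene, most often Gsta2. Of those of Gstp2, 54.3% do, most often in Gstp1, so that the assignment of reads to both genes is uncertain.

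Ugt2b35 was the member that fell with all libraries. It had 17.4, 11.7 and 18.4 CPM in SI centre and 5.78, 4.85 and 9.32 in row>3 cells, and its log2 fold change was -1.29 ± 0.29 (adjusted p = 0.004), and -1.45 ± 0.31 (adjusted p = 0.00173) without SI replicate 3. Without SI replicate 3, Gsta3 (-1.22 ± 0.29, adjusted p = 0.00414), Gstm3 (-1.58 ± 0.25, adjusted p = 8.17e-05) and Gstm6 (-2.13 ± 0.56, adjusted p = 0.0075) also fell. With all libraries the log2 fold change of Gstm3 was 0.38 ± 1.01 (adjusted p = 0.932), of the opposite sign. Other members rose in that fit, Gsta4 with 2.05 ± 0.31 (adjusted p = 3.16e-05), Ugt2b5 with 4.01 ± 0.74 (adjusted p = 0.000314), Sult1b1 with 2 ± 0.41 (adjusted p = 0.00232), Cyp2c65 with 1.66 ± 0.37 (adjusted p = 0.00322) and Ugt1a7c with 0.92 ± 0.24 (adjusted p = 0.0078). These 5 did not pass with all libraries without a block and passed with the block, with adjusted p-values of 0.000193 for Gsta4, 0.00771 for Ugt2b5, 0.00015 for Sult1b1, 0.000215 for Cyp2c65 and 0.000184 for Ugt1a7c.

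Cell type markers differed between these positions of SI as well. The 9 absorptive cell markers other than Car1 and Aqp8 summed to 94.8 to 321 CPM in SI centre and 755 to 1940 in SI row>3 cells, and 9 of 9 had counts in both. Krt20, a marker of mature epithelium, had 40.5, 22.4 and 37.2 CPM in SI centre and 727, 450 and 370 in row>3 cells. The 6 goblet cell markers summed to 699 to 10300 CPM in SI centre and 31500 to 49600 in row>3 cells, with 6 of 6 counted in both. That sum is mostly Muc2 and Fcgbp, and Clca1 went the other way, with 50.3, 48.1 and 32.5 CPM in SI centre and 13.8, 12.2 and 5.05 in row>3 cells. The 5 stem cell markers summed to 1420 to 5160 CPM in SI centre and 57.8 to 623 in row>3 cells. The enteroendocrine markers summed to 43, 244 and 2.89 CPM in centre and 305, 455 and 38.2 in row>3 cells, higher in each replicate. The immune sum, mostly Cd74, was lower in each replicate, with 580, 569 and 81.9, then 322, 259 and 68.5 CPM. Paneth markers (1640, 7610 and 1820 CPM in centre, 3090, 4440 and 195 in row>3 cells) and tuft cell markers (25.6, 33.2 and 379, then 312, 338 and 80.2) had no common direction over the replicates. The part of all these markers in the results was not tested.

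**Figure D5:**
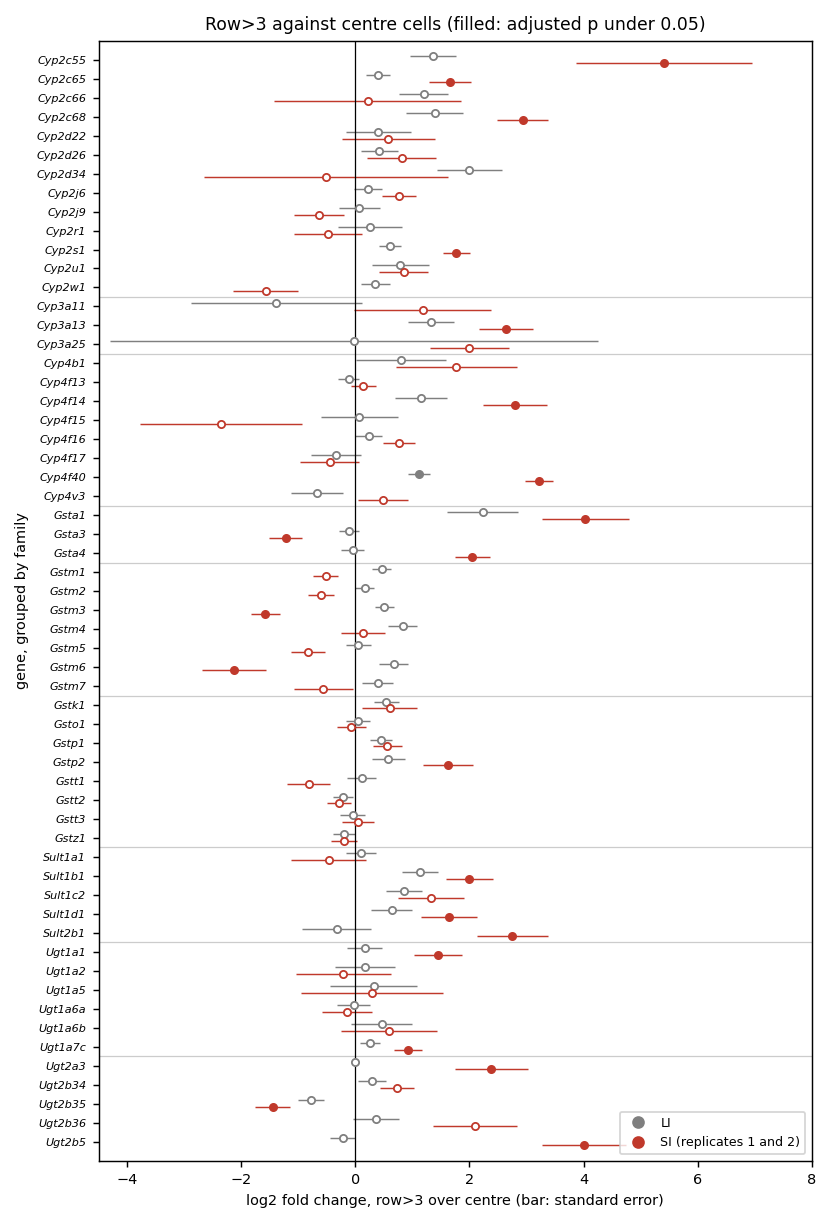
Log2 fold change of each member, row>3 over centre cells, with its standard error, in LI (grey) and in SI replicates 1 and 2 (red), both from the fit without SI replicate 3. Filled points have an adjusted p under 0.05. In SI 17 points are filled to the right of 0 and 4 to the left, and in LI the filled point is Cyp4f40.

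In LI no member passed between row>3 and centre cells with all libraries, where edgeR called 0.0187% of all genes. Of the members, 3 had an unadjusted p under 0.05 in edgeR. DESeq2 also called 0 members, with 6 under that unadjusted value, and 0.307% of all genes. The members with the smallest p in each direction were Gsta1 (2.26 ± 0.86, adjusted p = 0.572) and Cyp2c68 (1.4 ± 0.56, adjusted p = 0.609), and Ugt2b35 (-0.76 ± 0.27, adjusted p = 0.539) and Cyp4v3 (-0.66 ± 0.43, adjusted p = 0.875). Without SI replicate 3, which enters through the shared estimate of spread, Cyp4f40 passed, and 1.9% of all genes did. It had 12.6, 17 and 15.5 CPM in LI centre, 18, 23 and 21.9 in border and 33.2, 33.4 and 32 in row>3 cells, and its log2 fold change was 1.11 ± 0.19 (adjusted p = 0.00204).

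With the block, 5 members rose in LI and 1 fell, where 2.59% of all genes were called. These were Cyp2c55 (1.31 ± 0.27, adjusted p = 0.0213), Cyp4f14 (1.17 ± 0.28, adjusted p = 0.037), Cyp4f40 (1.13 ± 0.26, adjusted p = 0.0278), Sult1b1 (1.15 ± 0.28, adjusted p = 0.0428) and Sult1c2 (0.93 ± 0.19, adjusted p = 0.0136), and Ugt2b35 as the one that fell (-0.78 ± 0.18, adjusted p = 0.0211). Cyp4f40, Cyp4f14 and Ugt2b35 were also called in SI with all libraries, in the same directions. The same 9 absorptive markers summed to 232 to 275 CPM in LI centre and 253 to 398 in LI row>3 cells, with Apoa4 at 0 in both. The 6 goblet markers summed to 6910 to 11300 and 15200 to 24300 CPM, and the 5 stem cell markers to 367 to 411 and 80.8 to 116 CPM. Car1 was at 123, 192 and 232 CPM in LI centre and 795, 1090 and 1350 in LI row>3 cells, and Car4 at 114, 120 and 130 and at 62.7, 96.1 and 100 CPM. The part of these markers in the results was not tested.

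Border cells were compared with centre cells in the same way. In SI no member passed with all libraries, where 0.0112% of all genes did, with 9 members at an unadjusted p under 0.05 in edgeR. DESeq2 called 0 members there and 0.782% of all genes. Gsta1 (3.8 ± 1.07, adjusted p = 0.233), Cyp3a13 (1.9 ± 0.74, adjusted p = 0.45), Cyp2j9 (-1.41 ± 0.51, adjusted p = 0.372) and Ugt2b35 (-0.6 ± 0.28, adjusted p = 0.55) had the smallest p in each direction. Without SI replicate 3 Cyp4f40 passed with 1.42 ± 0.27 (adjusted p = 0.00794), and 0.963% of all genes did. With the block 7 members were higher in border cells, all of them P450 genes, where 2.32% of all genes were called. With the block and without SI replicate 3, 1 of these was called, Cyp4f40 (1.47 ± 0.25, adjusted p = 0.00267), where 2.29% of all genes were. Markers moved from SI centre to border cells as well. The goblet sum went from 699, 1230 and 10300 to 8430, 4110 and 13400 CPM, and the stem cell sum from 5160, 4950 and 1420 to 1800, 3440 and 154. The 9 absorptive markers went from 274, 94.8 and 321 to 619, 300 and 1180 CPM, and tuft cell markers from 25.6, 33.2 and 379 to 797, 259 and 403. Their part in these calls was not tested. In LI no member passed and 0% of all genes did, with 1 member (Cyp2u1, 1.15 ± 0.48, adjusted p = 1) at an unadjusted p under 0.05. DESeq2 called 0 members in LI and 0% of all genes. Gsta1 (1.47 ± 0.93), Ugt2b35 (-0.36 ± 0.27) and Sult2b1 (-0.64 ± 0.79) had adjusted p-values of 1 there. Leaving out SI replicate 3 gave 0 calls of members in LI, with 4 at an unadjusted p under 0.05, and 0.00382% of all genes.

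The last comparison asked whether the change from centre to row>3 cells differed between the sites. With all libraries edgeR called 0 members and 0% of all genes. DESeq2 called 0 members as well, and 0.565% of all genes. In edgeR 1 member had an unadjusted p below 0.05. The members with the smallest p were Sult2b1 (2.71 ± 1.03, adjusted p = 0.558) and Cyp4v3 (1.15 ± 0.58, adjusted p = 0.768), and in the other direction Gstm7 (-1.04 ± 0.66, adjusted p = 0.905) and Ugt2b35 (-0.52 ± 0.39, adjusted p = 0.973). Without SI replicate 3, 6 members were called, where 3.27% of all genes were. The change in SI exceeded that in LI for Cyp4f40 (2.11 ± 0.31, adjusted p = 0.000223), Gsta4 (2.1 ± 0.37, adjusted p = 0.00124), Ugt2b5 (4.24 ± 0.78, adjusted p = 0.00184) and Cyp2s1 (1.15 ± 0.31, adjusted p = 0.0372). It was below that in LI for Gstm3 (-2.09 ± 0.3, adjusted p = 0.000175) and Gstm6 (-2.8 ± 0.61, adjusted p = 0.00736). Gstm3 had 53.3, 52.1 and 55.1 CPM in LI centre and 67, 74.4 and 89.5 in LI row>3. In SI replicates 1 and 2 its level was 10.3 and 9.38 CPM in centre cells, against 3.92 and 2.6 CPM in row>3 cells. With the block and all libraries 3 members were called, Cyp2c55, Cyp4f40 and Gsta4, where 2.32% of all genes were. The block without SI replicate 3, chosen after seeing the data, called 7.63% of all genes, and the Cyp2c55 call was lost (4.09 ± 1.43, adjusted p = 0.124). The change in SI exceeded that in LI there for Cyp2c65, Cyp2s1, Cyp4f14, Cyp4f40, Gsta4, Sult1d1, Sult2b1 and Ugt2b5. It was below that in LI for Cyp2w1, Gsta3, Gstm1, Gstm2, Gstm3, Gstm5 and Gstm6.

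In LI the replicate number took part of the spread, in the members much as in all genes. Over the 9 LI libraries the replicate number took a median of 42.5% of the sum of squares of the log2 level in the 57 members with LI counts, against 37.2% in all 14321 genes with a mean count of at least 10 and counts in LI, and the position took 29.3% and 25.4%. Each has 25% of the degrees of freedom. The replicate number took over 50% in 21 members, or 36.8%, against 37.5% of those genes. Ugt1a5 had 17.4, 6.32 and 1.72 CPM in LI centre, 15.9, 5.36 and 4.63 in border and 18.5, 7.95 and 3.89 in row>3 cells, so that replicate 1 was the highest at every position. Ugt1a6b and Ugt1a2 had replicate 1 highest and replicate 3 lowest at every position as well. Gsto1 went the other way, with 90.1, 119 and 142 CPM in LI centre and 88.6, 132 and 151 in border cells, and 97% of its sum of squares lay between replicate numbers.

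The enzymes and pumps that work with the members, a list of 60 partner genes, were all in the tested table. Between row>3 cells of SI and LI, 7 were higher in SI and 3 lower with all libraries (2.76% and 1.32% of all genes), and 9 higher and 23 lower without SI replicate 3 (6.8% and 5.36%). Of the 8 genes of cofactor supply, 1 was lower in SI in centre cells (0.805% of all genes) and 2 in row>3 cells (1.32%) with all libraries, and 8 and 6 without SI replicate 3 (6.39% and 5.36%). Papss2, which makes the sulfate donor PAPS, had 4.09, 2.46 and 408 CPM in SI centre and 599, 605 and 698 in LI centre, a log2 fold change of -7.54 ± 0.27 (adjusted p = 2.5e-14) without SI replicate 3. Its level in SI replicate 3 was, like that of Sult1a1, near that of LI. Ugdh, which makes UDP-glucuronic acid, had 49.1, 33.2 and 369 CPM in SI row>3 and 344, 339 and 459 in LI row>3, with -3.15 ± 0.21 (adjusted p = 1.46e-10) in the same fit. Por had 44.4, 39.8 and 89.2 CPM in SI row>3 and 78, 70.1 and 82.3 in LI row>3, with -0.81 ± 0.15 (adjusted p = 0.000619).

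Abcc2, an apical pump for glutathione and glucuronide conjugates, was the 1 of 7 listed export pumps called higher in SI at each position in both fits, with 43, 28 and 25.6 CPM in SI centre and 0.754, 0.486 and 0.294 in LI centre, and a log2 fold change of 6.02 ± 0.46 with all libraries (adjusted p = 1.04e-07). No pump was lower in SI with all libraries, and 2, 2 and 3 were in centre, border and row>3 cells without SI replicate 3 (6.39%, 4.4% and 5.36% of all genes). Among the regulators, Gata4 (7.39, 6.52 and 6.93 CPM, against 0.058, 0 and 0 in LI, adjusted p = 3.78e-05) and Maf (log2 fold change 4.71 ± 0.99, adjusted p = 0.0281) were higher in SI centre cells with all libraries. Nfe2l2, the activator of antioxidant response elements, had 85.3, 76.1 and 141 CPM in SI row>3 and 135, 143 and 167 in LI row>3, with -0.82 ± 0.16 (adjusted p = 0.000719) without SI replicate 3. The receptors Ahr and Nr1i2 were present in every library, Ahr at 8.17 to 27.1 CPM and Nr1i2 at 32 to 71.8, and neither was called between the sites in centre or row>3 cells in either fit. From centre to row>3 cells of SI, 8 partners rose and 1, Ephx1, fell with all libraries (-1.74 ± 0.3, adjusted p = 0.000544), against 7.35% and 5.82% of all genes, and 20 rose and 6 fell without SI replicate 3, against 9.97% and 7.09%.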

How the data were processed

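The authors deposited 2 tables, of raw counts per gene and library and of the same counts divided by 1 size factor per library (signal, not used here). Per the labels, SMART-Seq Stranded libraries were read on mm10 and the notes name bcl2fastq and DESeq2. The methods name STAR for alignment and counting. No annotation or counting strand is named in the paper, labels or files read here, so that overlapping antisense genes cannot be told apart. Levels are CPM with TMM factors. The 26717 genes with a mean count above 0 were fitted over all 6 groups with edgeR 4.0.16 (R 4.3.3) by the quasi-likelihood test, two-sided, with 12 residual degrees of freedom and Benjamini-Hochberg adjustment over all genes. The code was tried on simulated counts with the same spread setting for all genes and independent libraries. That trial did not imitate SI replicate 3 or the correlation of same-numbered libraries, so that it does not check the test in that setting. DESeq2 1.42.0, other filters, factors and fits, single libraries left out, and fits without SI replicate 3 were alternatives, the last chosen with the values of these libraries known. Within a site, same-numbered libraries correlated in their deviations (0.158 to 0.554 in SI and 0.197 to 0.39 in LI), and the number was taken as a pairing there. Between the sites, at equal position, the values were -0.0298 to 0.16 and it was not. Positions and exon lengths came from GENCODE M21. Text names the member with most counts per family, up to 8 called members per direction and comparison, members of known role, and partners and markers as examples, the partners chosen after their values were seen. Members, lists and tests were chosen with earlier results of these data known. An LI marker of the list is not reported here.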

Additional observations from a re-analysis of the deposited data

Results flagged for a closer look

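Cyp2w1, a P450 of unsettled substrate that is best known from colon tumours, had mean differences of opposite sign between positions in the 2 sites. The change from centre to row>3 cells was -0.84 in SI and 0.36 in LI, as the mean over replicates of the log2 difference with a pseudocount of 0.5 CPM. All 3 SI replicates were lower in row>3 than in centre cells, from 3.38, 1.79 and 13.6 CPM to 0.797, 0.954 and 11 CPM, and all 3 LI replicates were higher, from 18.3, 9.73 and 11.9 to 20.3, 17.1 and 13.1 CPM. The gap between the mean changes was -1.20. In edgeR the test of the site difference gave -1.12 ± 1.37 (adjusted p = 1) with all libraries, -1.93 ± 0.63 (adjusted p = 0.109) without SI replicate 3 and -1.17 ± 0.38 (adjusted p = 0.112) with the replicate block. It passed with the block and without SI replicate 3 (-1.93 ± 0.5, adjusted p = 0.0208), a fit chosen after seeing the data, and without SI centre replicate 3 and with no block the difference was 0.08. With all libraries the changes within the sites were -0.77 ± 1.04 (adjusted p = 0.787) in SI and 0.35 ± 0.9 (adjusted p = 1) in LI. The change within LI was not called in any of the 4 edgeR fits with a test, and that within SI only with the block and without SI replicate 3 (-1.58 ± 0.47, adjusted p = 0.018).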

How the results depend on the processing

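With each of the 18 libraries left out in turn, the members called ranged from 0 to 7 between the sites in centre cells, 0 to 7 in border and 4 to 17 in row>3 cells, 4 to 13 for row>3 against centre cells in SI and 0 to 1 for border against centre cells in SI. The share of all genes called ranged over the same fits from 0.679% to 4.66%, 0.519% to 3.24%, 1.43% to 6.34%, 7.45% to 14.3% and 0% to 1.21%. The members called stayed at 0 for both LI comparisons and for the site difference. The change from the 3, 4 and 9 site calls was upward only without the SI replicate 3 library, and the cause was not tested. In the SI border comparison the 1 call came when either SI centre replicate 3 or SI border replicate 2 was left out.

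Without all SI replicate 3 libraries the calls were 30, 26 and 34 between the sites, 21 and 1 for row>3 against centre cells in SI and LI, 1 for border cells in SI and 6 for the site difference, where 10.9%, 8.1%, 12.2%, 17.1%, 1.9%, 0.963% and 3.27% of all genes were called. The paired fit, with a block for the replicate number inside each site, gave 28 and 6 for row>3 cells in SI and LI, 7 for SI border cells and 3 for the site difference, against 22.8%, 2.59%, 2.32% and 2.32% of all genes. The block without SI replicate 3, chosen after seeing the data, gave 33, 17, 1 and 15, where 23.7%, 6.78%, 2.29% and 7.63% of all genes were called. The block over all libraries gave 13, 8 and 18 between the sites, against 5.61%, 4.27% and 6.89% of all genes. In centre cells DESeq2 gave 9 (4.6% of all genes) and the filterByExpr filter 5 (4.84%). Fits of the compared groups only gave 10 in centre cells (2.61%), 2 in border cells (1.16%), 6 for row>3 cells in SI (10.7%) and 3 in LI (1.03%). Without a filter there were 2 in border cells (0.741%) and 7 for row>3 cells in SI (6.8%). The legacy quasi-likelihood fit, added after seeing the data, also gave 7 for the latter (11.1%).

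Signs turned for members that had not passed. Cyp2c55 between the sites in row>3 cells became 0.43, 0.44 and 0.13 without SI replicate 1, SI replicate 2 or LI replicate 3, within a range of -6.21 to 0.44 over single libraries left out. Between row>3 and centre cells of SI, Gstm3 became -1.58 without all SI replicate 3 libraries, -0.33 with the block, -1.59 with both and -2.15 without SI row>3 replicate 3, and without this last library Ugt2b5 became -0.43, Cyp2c65 -0.91 and Ugt1a7c -0.05. Without SI centre replicate 3 these 4 genes were at their highest, 0.93, 5.35, 3.71 and 1.91. Between border and centre cells of SI, Cyp2c55 became -5.05 without SI border replicate 3 and 10.83 without SI centre replicate 3. Gsta1, with few counts, became -0.77 without all SI replicate 3 libraries, -0.62 with the block as well and -0.23 without SI border replicate 3, with up to 4.81 over single libraries left out. For the site difference, Gstm3 became 0.40, 0.35 and 0.40 without SI centre replicate 3, SI row>3 replicate 1 or SI row>3 replicate 2, with a lowest value of -2.69, and Ugt2b5 became -0.24 without SI row>3 replicate 3, with a highest value of 5.55. The site difference of Cyp2w1 became 0.08 without SI centre replicate 3, within a range of -3.16 to 0.08 over single libraries left out. No reported member that passed with all libraries changed sign in any of these fits.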

Other observations

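Other phase I enzymes, outside the 4 families and named after their values were seen, showed both site patterns. Ces1g, a carboxylesterase of lipid metabolism, had 0.764, 2.98 and 211 CPM in SI row>3 cells and 271, 239 and 288 in LI row>3 cells, with a log2 fold change of -7.13 ± 0.31 without SI replicate 3 (adjusted p = 3.36e-13, edgeR) and -1.92 ± 1.91 (adjusted p = 0.765) with it. Ces1d had 0.863, 1.68 and 41.5 CPM in SI row>3 and 59.9, 64.3 and 76.3 in LI row>3. In SI replicates 1 and 2 it was at 13.2 and 10.6 CPM in centre cells, so that it fell with position (-3.24 ± 0.29, adjusted p = 4.28e-08), and the site difference of this change was -2.73 ± 0.33 (adjusted p = 3.33e-05). Fmo5, a flavin-containing monooxygenase, was higher in SI, with 34.3, 17.8 and 36.8 CPM in SI row>3 and 3.92, 4.85 and 8.21 in LI row>3 (2.39 ± 0.6, adjusted p = 0.037 with all libraries). Ces2e had 6.48, 5.72 and 17.5 CPM in SI centre and 93.9, 24.2 and 129 in SI row>3 cells, without overlap, and an adjusted p of 0.0518 with all libraries and 0.00394 without SI replicate 3.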
